A study of Mus musculus with 3 samples.

Results

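The Sp100, Sp110 and Sp140 gene region of mouse chromosome 1 was described here through the peaks of HA-tagged NUR77 called in it. Its members are the peaks whose centre lay in either of 2 windows of the mm9 genome build, positions 85000001 to 86000000 of chromosome 1 (window A) and positions 87400001 to 87700000 (window B). The rule gave 130 of 52946 peaks over 3 lists, namely 38 of 6777 in replicate 1, 49 of 37307 in replicate 2 and 43 of 8862 in replicate 3. In the authors' deposited table of intervals covered by at least 2 replicates, with touching intervals joined, 38 of 9800 regions were members, 23 in window A and 15 in window B. The windows had been picked from these same lists because many such regions lay there, so the counts, the sharing between replicates and the scores are a description of the region and carry no test.

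The data are 3 replicates of 1 group. RAW264.7, an established mouse macrophage line, carried the pINDUCER20b-HA-NUR77 construct, which makes HA-NUR77 when doxycycline is added. Each replicate was 6 dishes given 1 µg/mL doxycycline for 18 hours, and chromatin was precipitated with an antibody to the HA tag and sequenced (ChIP-seq). HA-NUR77 was thus overexpressed in a transgenic line in every sample, and no sample without doxycycline was analysed here, so no value below is set against an uninduced background.

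NUR77 (Nr4a1) is an orphan nuclear receptor that binds DNA as a monomer at an AAAGGTCA element and is induced quickly in stimulated macrophages. Sp100, Sp110 and Sp140 encode related nuclear proteins of the speckled protein family, whose genes are induced by interferons. Sp100 is a component of promyelocytic leukaemia nuclear bodies. Sp110 (also called Ipr1) is known from the mouse locus that governs resistance of macrophages to Mycobacterium tuberculosis, and Sp140 encodes a chromatin reader of immune cells that carries a bromodomain. In mice the family lies beside a block of repeated gene copies.

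The copies can be seen in the sequence at the gene starts. All 3 genes were found in the RefSeq tables of build GRCm38.p6, which list 24 genes on chromosome 1 between Slc16a14 and Cab39. The order there was 18 genes, then Sp110, Sp140 and Sp100. The 18 comprised 10 pseudogenes, 6 protein-coding genes and 2 long noncoding RNAs. The 250 bases before 3 of those protein-coding genes, A530032D15Rik, C130026I21Rik and Gm7609, were aligned to those before Sp140 or Sp100. Aligned stretches of 221, 205 and 248 bases were nearly the same. The sequences are printed here 5′ to 3′ along each gene's strand to show how alike the copies are. Capitals mark a base that differs from Sp140 (for A530032D15Rik and C130026I21Rik) or from Sp100 (for Gm7609) within the aligned stretch. Bases outside the aligned stretch are also in lower case, which does not mean that they match.
Sp140, chr1:85600453-85600702, plus strand: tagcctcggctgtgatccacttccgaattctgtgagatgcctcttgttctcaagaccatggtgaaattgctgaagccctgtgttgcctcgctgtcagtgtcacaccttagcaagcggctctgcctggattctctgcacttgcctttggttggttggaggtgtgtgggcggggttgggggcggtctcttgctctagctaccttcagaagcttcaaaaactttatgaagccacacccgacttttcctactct
A530032D15Rik, chr1:85109854-85110103, minus strand: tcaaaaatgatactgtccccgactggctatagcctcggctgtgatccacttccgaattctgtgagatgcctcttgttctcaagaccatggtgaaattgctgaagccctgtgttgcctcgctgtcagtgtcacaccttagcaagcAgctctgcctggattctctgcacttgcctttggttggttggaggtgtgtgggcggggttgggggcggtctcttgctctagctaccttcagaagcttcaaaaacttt
C130026I21Rik, chr1:85270567-85270816, minus strand: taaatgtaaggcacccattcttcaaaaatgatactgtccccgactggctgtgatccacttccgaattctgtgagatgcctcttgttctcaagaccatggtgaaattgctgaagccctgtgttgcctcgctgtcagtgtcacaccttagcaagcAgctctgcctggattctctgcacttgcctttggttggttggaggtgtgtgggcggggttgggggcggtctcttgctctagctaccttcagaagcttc
Sp100, chr1:85649764-85650013, plus strand: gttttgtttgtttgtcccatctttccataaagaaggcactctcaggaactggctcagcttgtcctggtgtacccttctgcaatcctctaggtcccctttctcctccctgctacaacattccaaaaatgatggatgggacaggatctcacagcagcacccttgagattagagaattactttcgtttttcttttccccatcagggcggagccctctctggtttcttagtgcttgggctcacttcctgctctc
Gm7609, chr1:85199361-85199610, plus strand: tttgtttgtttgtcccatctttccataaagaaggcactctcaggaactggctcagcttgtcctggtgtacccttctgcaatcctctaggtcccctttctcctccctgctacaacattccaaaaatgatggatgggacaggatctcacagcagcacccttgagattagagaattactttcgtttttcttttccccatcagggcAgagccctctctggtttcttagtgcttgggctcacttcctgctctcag
Sp110, chr1:85598811-85599060, minus strand: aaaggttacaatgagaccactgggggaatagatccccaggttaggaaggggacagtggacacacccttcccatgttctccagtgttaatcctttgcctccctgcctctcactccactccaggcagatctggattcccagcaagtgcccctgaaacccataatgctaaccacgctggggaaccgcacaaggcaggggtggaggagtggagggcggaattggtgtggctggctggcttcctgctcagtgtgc

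Sp140 matched A530032D15Rik at 220 of 221 aligned bases and C130026I21Rik at 204 of 205. Sp100 matched Gm7609 at 247 of 248, with an unbroken identical run of 202 bases. Of all stretches of 50 bases in these upstream sequences, 60.7% in Sp140 and 76.1% in Sp100 occurred unchanged before another gene, in each case only before the copies just named. At least 50% of such stretches did so in 3.55% of the 32851 promoters of the table. Sp110 has 2 listed starts, 5081 bp apart. Before the start printed above, which faces away from the Sp140 start at a distance of 1893 bp, no stretch of even 36 bases recurred. Before the other Sp110 start, 41.8% of the 50-base stretches recurred before 19 other genes, 1 of them on chromosome 1.

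The NUR77 element AAAGGTCA, searched on both strands, was present in none of the 250 bases before the 5 listed starts of Sp100, Sp110 and Sp140 or before the 3 copies, and in 1.34% of all promoters. Its core AGGTCA was also in none of them and in 14.0% of all promoters. AAANNGAAA, a short form of the interferon response element with N for any base, matched once before Sp100 on the minus strand, 73 bases before the printed start, and once before Gm7609, 75 bases before its start. This short form was in 9.37% of all promoters. A longer form, with a further G in front, was present before none of the 5 listed starts or the 3 copies. That longer form was in 2.98% of all promoters. The printed positions are of GRCm38.p6 and the peaks are on mm9. The builds were not converted, so no peak below is placed at a gene and the gene names of the region were not checked against the peaks.

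Peaks filled only part of window A. All of them, over the 3 replicates, lay between 85071724 and 85339523, a span of 267.8 kb, and the remaining 660.5 kb up to the window's end held none. Counted from the last of those peaks, the 3 lists were empty for 2010 kb, up to position 87349704, below window B. Such a stretch or a longer one occurred 141 times among the 38441 stretches between neighbouring peaks of the 3 lists, 14 times on chromosome 1. Peak numbers in the authors' names follow position, and they ran on across this stretch without an absent number in any replicate (281 to 282, 1288 to 1289 and 372 to 373), so no numbered peak had been removed there. Whether mm9 holds sequence there to which reads can be placed was not examined, so the stretch is not shown to be unbound. Members of window B lay between 87430154 and 87691653.

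**Figure D1:**
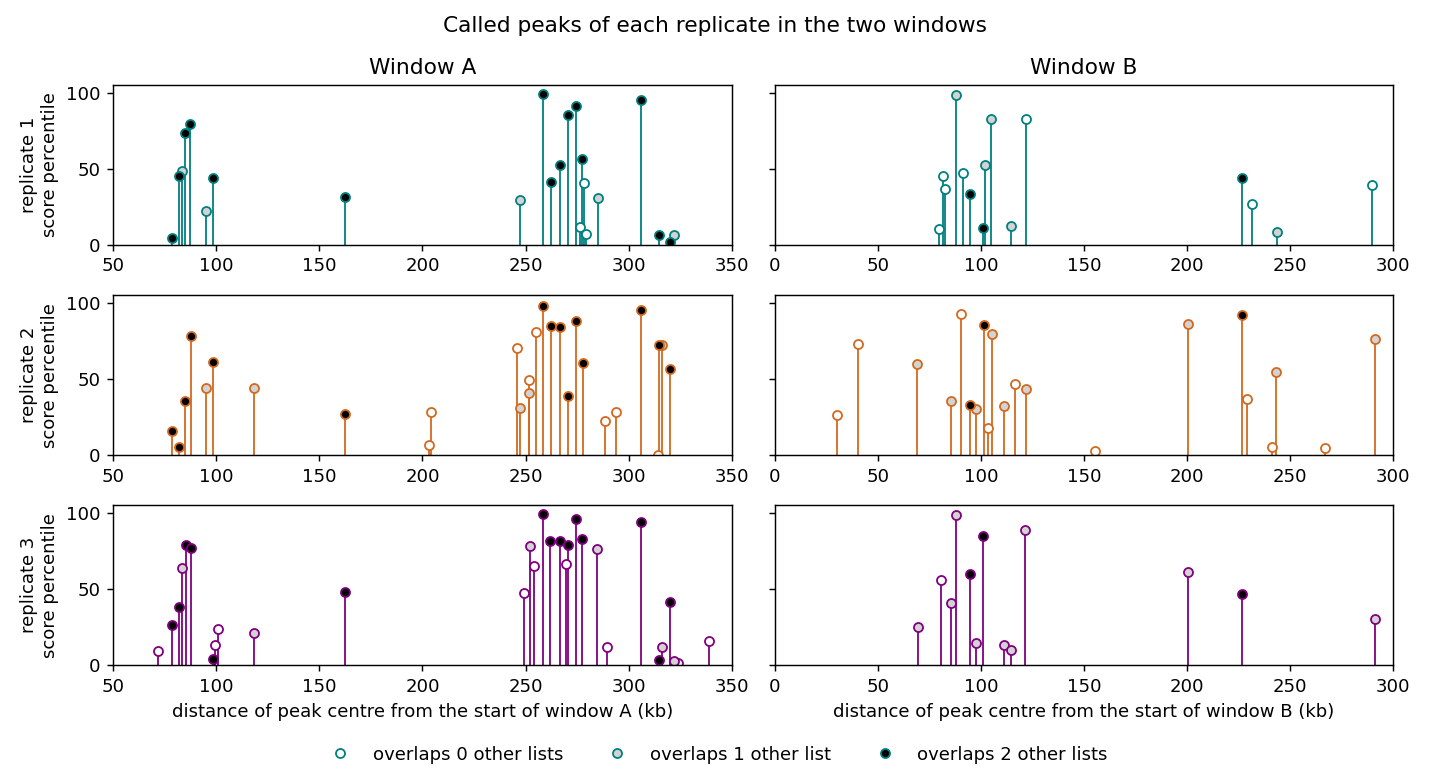
Peaks of replicates 1, 2 and 3 (rows) in windows A and B (columns), by the distance of the peak centre from the window's start in kb and the score percentile, the share of the replicate's own list that scored lower. The fill of a point gives the number of other lists with an overlapping peak; window A shows mostly black points in its dense stretches, window B only 3 per replicate, and the x axis of window A stops at 350 kb because no peak lies beyond.

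The 3 replicates gave similar numbers of peaks in both windows, although their whole lists differ in length. Window A held 23, 28 and 30 peaks in replicates 1, 2 and 3 (27 ± 3.61, mean ± SD, n = 3). Window B held 15, 21 and 13 (16.3 ± 4.16, mean ± SD, n = 3). The ratio of replicate 2 to replicate 1 was 1.22 in window A and 1.40 in window B, against 5.50 over the whole lists and 4.80 on chromosome 1. The adjoining window from 84 to 85 Mb held 11, 45 and 15 peaks, so the long list of replicate 2 was visible next to window A and not in it.

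Among the 137 windows of 1 Mb with at least 10 peaks in replicate 1, window A had the second lowest ratio of replicate 2 to replicate 1. The median of the other windows was 3.40, and their lowest value was 1.10, in a window on chromosome X with 10, 11 and 12 peaks. Replicate 3 outnumbered replicate 2 in only those 2 of the 137 windows. The 1 Mb window that holds window B, from 87000001 to 88000000, had 16, 35 and 16 peaks. Its ratio of replicate 2 to replicate 1 was 2.19, at place 11 from the lowest, so window B stood out less on this scale. The windows were counted because replicate 1 had many peaks there, which by itself lowers the ratio.

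**Figure D2:**
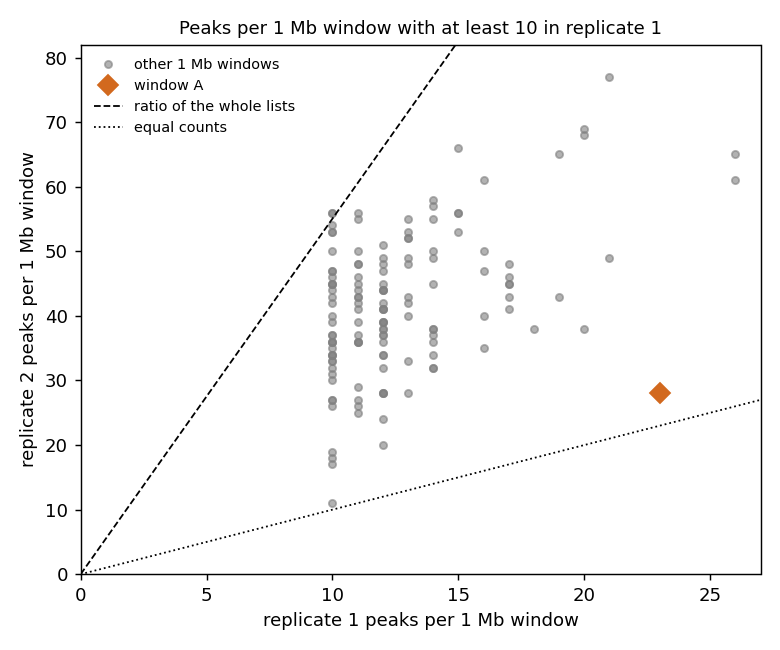
Peaks of replicate 2 (y axis) against peaks of replicate 1 (x axis) in each 1 Mb window with at least 10 replicate 1 peaks. The dashed line is the ratio of the whole lists (5.50) and the dotted line equal counts; window A, the diamond at 23 and 28, lies close to the dotted line and apart from the other windows with about 20 replicate 1 peaks.

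The best-scored peaks of replicate 2 were neither scarce nor frequent among its members. When each list was limited to its 6777 best-scored peaks, the length of the shortest list, window A kept 23 peaks of replicate 1, 5 of replicate 2 and 20 of replicate 3. Window B kept 15, 4 and 10. In the same limited lists, chromosome 1 as a whole held 616, 574 and 596 peaks, so there the replicates were nearly level. The limit kept 9 of the 49 replicate 2 members (18.4%), close to the 18.2% of that list kept by construction, and 30 of the 43 replicate 3 members (69.8%, against 76.5% of that list). The low counts of replicate 2 under the limit therefore restate its low ratio to replicate 1 in the full lists.

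Within their own lists the members were of middling rank. The median score percentile in window A was 41.2, 46.7 and 47.6 in replicates 1, 2 and 3 (45.2 ± 3.44, mean ± SD, n = 3). In window B it was 39.0, 43.5 and 46.7 (43.1 ± 3.88, mean ± SD, n = 3). The median of a whole list is 50 by construction. Both windows were measured in the same 3 lists, and the median was slightly lower in window B than in window A in each. The difference was not tested. Scores reached the top 10% of the list for 3, 2 and 3 peaks of window A and for 1, 2 and 1 peaks of window B. Median widths were 350, 538 and 400 bp in window A and 300, 500 and 350 bp in window B, near the 350, 500 and 350 bp of the whole lists.

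The share of peaks with a partner in another list was compared with that of the whole list. It was lower for replicate 1 in both windows and for replicate 3 in window A. For replicate 3 in window B it was near the whole-list value, and for replicate 2 above it in both windows. The intervals given here include the whole-list value for replicate 1 in window A and for replicate 3 in window B. Of the replicate 3 peaks of window A, 21 of 30 (70.0%, exact 95% binomial interval 50.6 to 85.3) overlapped a peak of another list, against a percentage of 93.2 for all replicate 3 peaks. In window B it was 12 of 13 (92.3%, 64.0 to 99.8). Of the replicate 1 peaks, 20 of 23 (87.0%, 66.4 to 97.2) did so in window A and 8 of 15 (53.3%, 26.6 to 78.7) in window B, against 94.3 percent of the list. For replicate 2 it was 20 of 28 (71.4%, 51.3 to 86.8) and 12 of 21 (57.1%, 34.0 to 78.2), against 25.7 percent. Replicate 2 has 37307 peaks over its whole list against 6777 and 8862 in the others, which limits its whole-list share. In the windows the counts were closer, so its higher share there is not separate from its low count ratio. These intervals cover counting error only, treat neighbouring peaks as independent and are no test, since the windows were picked for regions of at least 2 replicates.

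How sharing varied with score differed between the whole lists. Divided into 10 groups by score, the list of replicate 3 had between 84.3% and 96.8% of peaks shared, and that of replicate 1 between 85.7% and 97.9%. The list of replicate 2 ranged from 2.44% to 86.3%, with 5.54% in its lower-scored part (below percentile 50) and 45.9% in its higher-scored part. In window A, replicate 2 had 9 of 15 peaks (60.0%) shared in the lower-scored part and 11 of 13 (84.6%) in the higher, and in window B 5 of 12 (41.7%) and 7 of 9 (77.8%). Of the 9 replicate 3 peaks of window A without a partner, 7 lay in the lower-scored part of the list. Over the whole list of replicate 3 this held for 421 of 606 peaks without a partner. The percentiles of the 9 in window A ran from 1.26 to 66.5, the highest being the peak at 85269424 to 85269573. In replicate 1, 7 peaks of window B had no partner, and the best of them, at 87522055 to 87522154, was at percentile 82.7 with a score of 91.6.

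Partners were counted for each pair of lists. Of the replicate 1 peaks in windows A and B, 17 of 23 (73.9%) and 6 of 15 (40.0%) overlapped a replicate 2 peak, against 91.8 percent of the list. Of the replicate 3 peaks, 18 of 30 (60.0%) and 10 of 13 (76.9%) did, against 91.2 percent. Between replicates 1 and 3 the point values of the windows lay on opposite sides of the whole lists. Of all replicate 1 peaks, 71.6 percent overlapped a replicate 3 peak. In window A it was 18 of 23 (78.3%, exact 95% interval 56.3 to 92.5), and in window B 5 of 15 (33.3%, 11.8 to 61.6). Of all replicate 3 peaks, 54.8 percent overlapped a replicate 1 peak. In window A it was 18 of 30 (60.0%, 40.6 to 77.3), and in window B 5 of 13 (38.5%, 13.9 to 68.4). Of these intervals, only that of replicate 1 in window B excludes the list value. By point value, window B had a smaller share than the whole lists in both pairings of replicate 1 and both of replicate 3. In window A this held only in the pairings with replicate 2. Of the joined regions, 3 of 23 in window A and 2 of 15 in window B were covered by replicates 1 and 3 alone, where 1.77 percent of all joined regions held no replicate 2 peak. The 2 windows held 5 of the 169 merged regions of the series with peaks of replicates 1 and 3 only (2.96%) and 0.379% of all merged regions with at least 2 replicates.

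**Figure D3:**
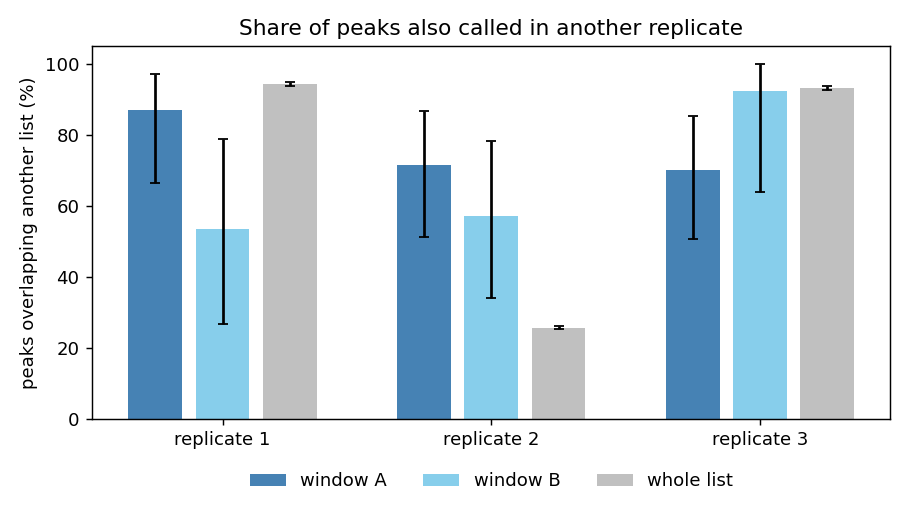
Percentage of peaks that overlap a peak of at least 1 other list by 1 bp or more, for each replicate in window A, window B and the whole list. Bars are percentages and error bars exact 95% binomial intervals; replicates 1 and 3 stand at 94.3 and 93.2 over their whole lists and replicate 2 at 25.7, while the 6 window values lie between 53.3 and 92.3. The whole-list value of replicate 2 is limited by the shorter lists of the other replicates.

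The windows differed in how many replicates covered a region. In window A, 15 of 23 joined regions (65.2%) held a stretch of all 3 replicates, and in window B 3 of 15 (20.0%), against 47.8 percent of the 9800 regions. Window B had more regions of a single pair, with 7 of its 31 merged regions from replicates 2 and 3, 2 from replicates 1 and 2 and 2 from replicates 1 and 3. A further 7 regions of window B came from replicate 1 alone, 9 from replicate 2 alone and 1 from replicate 3 alone. In window A the 43 merged regions included 3 of replicate 1 alone, 8 of replicate 2 alone and 9 of replicate 3 alone. Over the series, replicate 1 alone gave 385, replicate 2 alone 27717 and replicate 3 alone 606 of 38463 merged regions. Replicates 2 and 3 gave 3364, replicates 1 and 2 gave 1499, and replicates 1 and 3 gave 169. Replicate 2 alone was thus a smaller share of the merged regions in both windows than over the series. That difference is not separate from the low ratio of replicate 2 to replicate 1 peaks in the windows.

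In window A the regions of all 3 replicates lay in 2 dense stretches with 1 between them, when centres within 13 kb were joined. The number and borders of the stretches depend on that distance, and results with other distances are not given here. The first stretch, from 85071724 to 85101123, held 10 merged regions (overlapping peaks of any list joined), 5 of them with all 3 replicates, where 12.3 percent of all merged regions had all 3. The second, from 85245504 to 85324073, held 28 merged regions, 9 with all 3 replicates. Between them the region at 85161955 to 85162453 was covered by all 3 replicates and stood 85.2 kb from the next joined region. The middle spacing of neighbouring joined regions was 3.84 kb in window A and 6.42 kb in window B. Distances of 3 to 4 kb between any 2 joined regions of window A were the most frequent, with 7 of 253 pairs.

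The best-ranked region lay in the second stretch of window A, at 85258355 to 85259054. Replicates 1, 2 and 3 scored it 324, 878 and 525, at percentiles 98.8, 98.0 and 99.4. It was the best-scored peak of window A in all 3 replicates. The second, at 85305955 to 85306507, had percentiles of 95.1, 95.3 and 94.0. The third, at 85274305 to 85274704, had 90.9, 88.1 and 96.0. In the first stretch the leading region was at 85087254 to 85087773, with 79.2, 77.9 and 77.0. These 4 regions held nearly the same rank in every list.

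Other regions of all 3 replicates changed rank widely between lists. The region at 85314599 to 85314923 stood at percentile 72.5 in replicate 2 and at 6.18 and 3.26 in replicates 1 and 3. The region at 85098274 to 85098653 stood at 43.9, 60.8 and 4.01, and the region at 85319674 to 85320254 at 1.73, 56.4 and 41.5. In these 3 regions replicate 2 ranked the region highest. The opposite was seen at 85270405 to 85271054, with 85.2, 38.8 and 78.7 in replicates 1, 2 and 3. It was seen again at 85084824 to 85085204, with 73.4, 35.6 and 79.0, and at 85081574 to 85081904, with 45.0, 5.43 and 38.2.

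Of the remaining regions of window A, 3 followed the best one within about 20 kb. The region at 85261854 to 85262304 stood at percentiles 41.2, 84.4 and 81.6, the region at 85266574 to 85267073 at 52.5, 84.1 and 81.3, and the region at 85277124 to 85277573 at 56.6, 60.4 and 83.0. All 3 were lowest in replicate 1. The isolated region at 85161955 to 85162453 stood at 31.3, 27.0 and 48.0, and the lowest, at 85078255 to 85078696, at 4.37, 15.9 and 26.5.

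In window B, 3 regions were covered by all 3 replicates. The region at 87626555 to 87626973 stood at percentiles 44.1, 92.1 and 46.7, and was the second best of replicate 2 in this window. The region at 87500874 to 87501223 stood at 10.7, 85.4 and 85.2. There a replicate 2 peak of 1350 bp spanned 2 separate replicate 1 peaks, the other at 87501805 to 87502154 with percentile 52.2. The region at 87494554 to 87494854 stood at 33.2, 33.0 and 60.1.

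The replicate that ranked a region highest varied in window A. Over the series, replicate 2 gave the highest of the 3 percentiles in 4378 of 4723 merged regions of all 3 replicates (92.7%), with a median percentile of 91.3 against 60.1 in replicate 1 and 66.0 in replicate 3. Of the 15 such regions of window A, replicate 2 was highest in 6, replicate 3 in 6 and replicate 1 in 3, with median percentiles of 52.5, 60.8 and 78.7 in replicates 1, 2 and 3. In window B replicate 2 was highest in 2 of the 3 regions and replicate 3 in 1, with medians of 33.2, 85.4 and 60.1. Unshared peaks raise the percentile of shared regions that outscore them. They were 74.3% of the replicate 2 list, against 5.68% and 6.84% in replicates 1 and 3. A higher percentile in replicate 2 thus does not show stronger binding there, and what sets the order in window A was not tested. Across the 18 regions of both windows the ranks of replicates 1 and 3 went together with a Spearman rho of 0.66, those of replicates 1 and 2 with 0.45 and those of replicates 2 and 3 with 0.61, against 0.79, 0.67 and 0.72 over the series. The regions share their libraries and lie side by side, so no p is given.

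**Figure D4:**
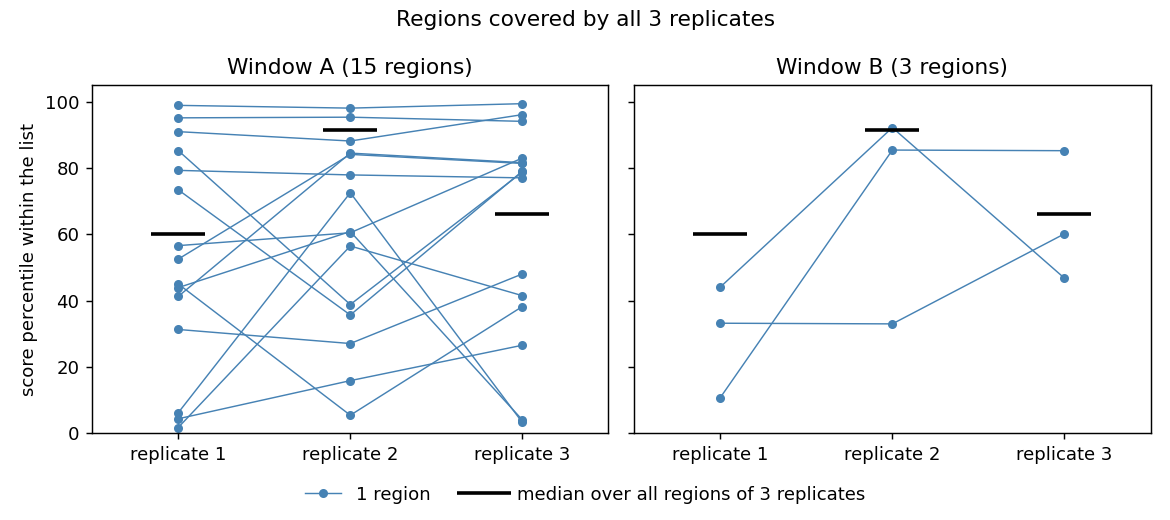
Score percentile within each replicate's own list for the regions covered by all 3 replicates, 15 in window A and 3 in window B, 1 line per region. Black bars are the medians over the 4723 merged regions of all 3 replicates; in replicate 2 the bar is at 91.3, and 3 of the 18 regions lie above it. Percentiles are within lists of 6777, 37307 and 8862 peaks, so their heights do not compare binding between replicates.

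One region of high rank was absent from the longest list. The region of window B at 87487755 to 87488154 was the best-scored of the window in replicates 1 and 3, with scores of 291 and 403 and percentiles of 98.5 and 98.7 (ranks 103 of 6777 and 117 of 8862). Replicate 2 had no overlapping peak. By mean percentile it was the third of the 169 merged regions with peaks of replicates 1 and 3 only. The nearest replicate 2 peak, at 87489754 to 87490453, began 1580 bp further on, scored 436 (percentile 92.9) and was the best-scored replicate 2 peak of window B. It overlapped neither other list. The replicate 2 peaks on either side of the region are numbered 1295 and 1296, so no numbered peak had been removed between them.

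Other regions of single pairs were of lower rank. At 87505004 to 87505304, replicates 1 and 2 stood at percentiles 82.5 and 79.2. At 87600374 to 87600773, replicates 2 and 3 stood at 85.8 and 61.3, and at 87521504 to 87521723 at 43.5 and 88.5. In window A the regions of replicates 1 and 3 alone were at 85083005 to 85083323 with 48.2 and 63.8, at 85284755 to 85285073 with 30.7 and 76.3, and at 85321955 to 85322104 with 6.20 and 3.08. At 85251824 to 85252053, replicates 2 and 3 stood at 40.4 and 78.2, and at 85316124 to 85316573 at 72.3 and 12.2. At 85118274 to 85118673 they stood at 44.3 and 21.4, and in window B at 87691224 to 87691423, the last region of the window, at 76.3 and 30.5. At 85094905 to 85095104, replicates 1 and 2 stood at 22.5 and 44.0. The best replicate 2 peak of window A without a partner was at 85255054 to 85255603, with a score of 210 and percentile 80.9.

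The lowest-scored members of window A were at percentiles 1.73, 0.259 and 1.26 in replicates 1, 2 and 3, and those of window B at 8.15, 2.74 and 10.3, so each list held weak peaks here as well. Peaks just outside the windows were mostly weak too. Below window A, the nearest peaks lay 17.1, 10.0 and 8.53 kb from the border, at percentiles 10.8, 19.2 and 4.82 in replicates 1, 2 and 3. The first inside were at 4.37, 15.9 and 9.57. Below window B, replicates 2 and 3 shared a peak site 8.37 and 8.32 kb from the border at percentiles 10.3 and 21.1. Above it, the nearest peaks of replicates 1, 2 and 3 stood at 75.0, 11.3 and 11.1, and the last inside at 39.0, 76.3 and 30.5.

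Absent peak numbers were a smaller share in both windows than over the lists, by little for replicate 2 in window A. Numbers were counted from the first to the last listed peak of each window, so both end numbers are present by construction. The windows were also picked for their many listed regions, so these shares are a description only. Of the peak numbers spanned by window A, 3 of 26, 6 of 34 and 2 of 32 were absent in replicates 1, 2 and 3 (11.5%, 17.6% and 6.25%). In window B it was 4 of 19, 3 of 24 and 2 of 15 (21.1%, 12.5% and 13.3%). Over the whole lists 39.1%, 19.7% and 38.8% of the numbers were absent. What removed them is not given in the sources used here.

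How reads that match several copies were placed, the length of the reads and the signal of the re-used input reads in these windows were not analysed here. The near-identical sequence before Sp140, Sp100 and their copies is a measured property of the GRCm38.p6 sequence, and its part in the counts, ranks and missing partners was not tested.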

How the data were processed

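Binding of HA-NUR77 was measured by ChIP-seq in 3 replicates of 1 group. The authors deposited 1 peak list per replicate with positions, MACS-style names and a peak score whose scale is not stated, so scores were ranked within their own list only. Coordinates are of mm9, per the submitters' processing notes. Caller version, threshold and aligner were not given in the sources used here. Rebuilt from the lists, the authors' deposited table of intervals in at least 2 replicates gave a match: 19164 of 19164 intervals had the same borders, and the replicate names matched when those of replicates 2 and 3 were exchanged, so replicate numbers follow the sample titles.

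Peaks were members by their centre and called shared from an overlap of 1 bp. A score percentile is the share of the list that scored lower, ties at their middle. The score percentile of a region is that of its best peak in each list. Merged regions join overlapping peaks of all lists, and dense stretches join centres within 13 kb. Named were all regions of all 3 replicates, up to 6 regions of 2 replicates per window, and the best, lowest and bordering peaks. Upstream sequences came from RefSeq (GRCm38.p6) and were aligned locally. Members, lists and sequence comparisons were chosen with earlier results of these data known. Read depth is unknown, and shares carry exact 95% intervals for counting error only. The labels do not say whether replicates were separate experiments. On a simulated list the overlap step found 100% of 2000 peaks copied from replicate 1 with shifted borders. The shifts were smaller than the narrowest peak of that list, so this checks the code only and not the sharing in dense windows. The tools were Biopython 1.88, scipy 1.17.1, pandas 2.3.3, matplotlib 3.10.9 and numpy 2.4.6 under Python 3.11.15.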

Additional observations from a re-analysis of the deposited data

How the results depend on the processing

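With the 6777 best-scored peaks of each list, the mean number of peaks per replicate was 16 in window A and 9.67 in window B, the ratio of replicate 2 to replicate 1 was 0.217 and 0.267, and window A kept 5 regions of all 3 replicates. With the higher-scored 50% the means were 11.7 and 6.33. The ratio of replicate 2 to replicate 1 was then 1.625 in window A and 2.25 in window B, above the 1.22 and 1.40 of the full lists. Both settings shorten the lists. The first shortens that of replicate 2 the most, which by itself lowers the ratio. With centres within 100 bp, the mean share of peaks with a partner was 64.6% in window A (76.1% with 1 bp) and 43.7% in window B (67.6%). Leaving out each replicate gave shares of 62.1% to 69.1% in window A and 31.9% to 62.3% in window B, where the lowest was without replicate 3 and the value without replicate 2 was 35.9%. The joined regions were 17 to 18 in window A and 5 to 10 in window B, 5 without replicate 2 and 6 without replicate 3. Leaving out a replicate moved the mean peaks per replicate to 25.5 to 29 in window A and 14 to 18 in window B, and the mean median percentile to 44.0 to 47.2 and 41.2 to 45.1. Not joined, window A had 53 intervals. Among shared peaks only, the mean median percentile of window A was 59.7. Peaks per Mb were 101 over the occupied span of window A (27 over the window) and 71.7 in window B with its borders 50 kb further in (54.4 as given). The most frequent distance between regions of window B was 16.5 kb in bins of 1 kb and 3.25 kb in bins of 0.5 kb, so it depends on the bin. No paired analysis was possible because the samples form a single group. Depth is unknown, so a missing peak is not shown to be a missing binding site.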
